A study of Peromyscus polionotus with 11 samples.

Results

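The bed nucleus of the stria terminalis and the medial preoptic area were compared in oldfield mice (Peromyscus polionotus) kept in short days. The comparison took every array that the labels give as short-day, which are 2 of the bed nucleus (numbered 4 and 5) and 3 of the medial preoptic area (numbered 4, 5 and 6), 5 of the 11 arrays of the study. Each array holds biotin-labelled total RNA from a micropunch, a small core of tissue cut from a brain section, extracted with a column kit and hybridised to Affymetrix probe sets made for the house mouse. The other 6 arrays, 3 of each nucleus, came from long-day mice and entered only the estimate of the spread and a side-by-side description. The study asked how day length acts on these nuclei. The labels give no genotype, agent, sex, age or hours of light, and the series' own account calls the samples independent. They do not say whether a bed nucleus and a preoptic sample with the same number came from 1 animal, or whether a sample was pooled, so the p-values measure the spread between these samples.

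The bed nucleus is part of the extended amygdala. It lies beside the striatum and septum, and it carries signals from the amygdala to the hypothalamus in anxiety-like, social and reproductive behaviour. The medial preoptic area lies below it in the anterior hypothalamus and organises parental and sexual behaviour, sleep and body temperature. Both hold many neurons that use GABA, both express receptors for sex steroids, and the borders of both lie close to other territories that a punch can reach.

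The median intensity was 19 on every array, and the quartiles of the short-day arrays were 13 to 14 and 34. Within a nucleus the log2 values of 2 short-day arrays correlated at 0.974 to 0.987, and between the nuclei at 0.971 to 0.981. Preoptic array 6 stood apart: on the first principal component of the 5 arrays (35% of the variance) it lay at 31.1, and the others between -14.7 and 0.578. Its probe set for the 3′ part of 18S ribosomal RNA read 355, against 109 to 129 on the other 4 arrays. The Gapdh control signal at the 3′ end over that at the 5′ end, a measure of RNA quality, was 6.3, 6.64 and 6.4 on the preoptic arrays and 5.37 and 5.24 on the bed nucleus arrays. The same ratio for beta-actin was 4.39, 4.84 and 6.63 against 3.85 and 4.92. The Gapdh ratio thus separated the nuclei and the actin ratio did not. The part of RNA quality in the results below was not tested.

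Between the nuclei 80 of 22626 probe sets differed at an adjusted p under 0.05 (0.354%, limma with Benjamini-Hochberg adjustment), 33 of them (0.146%) with more signal in the bed nucleus and 47 (0.208%) with more in the preoptic area. With quantile normalization the split was 39 and 34. The 74 named probe sets among the calls stand for 65 of 12393 genes (0.524%), 25 with more signal in the bed nucleus and 40 in the preoptic area. Of the 65 genes, 38 have further probe sets that were not called, 77 in all, 60 of which lay in the same direction as the called one. On the log2 scale the size of the called differences ran from 0.678 to 2.07 with a median of 0.903, and 31 exceeded 1. On all 80 probe sets every array of one nucleus lay above every array of the other, which held for 19.4% of all probe sets. An unadjusted p under 0.05 was found for 2335 probe sets (10.3%), the share to set beside the counts of list members given below.

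The calls needed the long-day arrays for the estimate of the spread. With the 5 short-day arrays alone limma called 0 probe sets, with 1886 unadjusted p-values under 0.05 and a smallest adjusted p of 0.218. For any single gene 3 arrays against 2 have 10 splits, so an exact permutation test cannot go below 0.1 one-sided. The bed nucleus side rests on 2 arrays: without its array 4, 13 probe sets passed (5 higher in the bed nucleus, 8 lower), and without its array 5, 6 did (1 and 5). Only 2 of the 80 passed in both of these fits, those for acetylcholinesterase (Ache) and for the brighter Arpp19 probe set. Without preoptic array 4 the count was 27 (12 and 15), without array 5 it was 43 (31 and 12), and without array 6 it was 70 (19 and 51). None of the 80 changed direction in any of these fits.

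**Figure D1:**
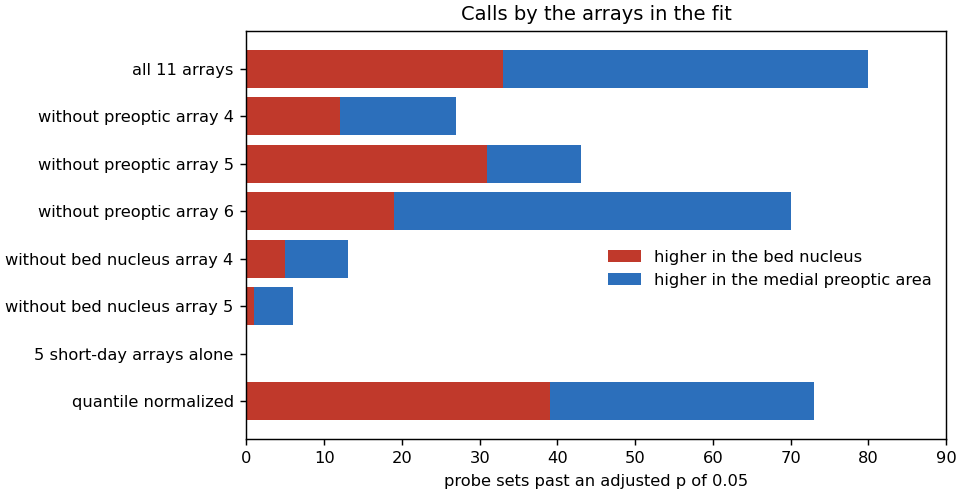
Bars give the number of probe sets past an adjusted p of 0.05 (horizontal axis), higher in the bed nucleus (red) or in the medial preoptic area (blue), for the fit on all 11 arrays, with each short-day array left out, with the 5 short-day arrays alone, and after quantile normalization. The count falls from 80 to 13 and 6 without bed nucleus array 4 or 5, and to 0 with the 5 arrays alone.

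The largest called differences in favour of the bed nucleus came from a gene of phosphatase signalling. Arpp19, a small phosphoprotein that inhibits protein phosphatase 2A once it is phosphorylated, read 2296 and 2164 on the bed nucleus arrays and 524, 873 and 464 on the preoptic arrays. The 2 bed nucleus arrays lay close together and far above all preoptic arrays. This is a 3.74-fold higher signal, or a log2 difference (bed nucleus minus preoptic area, as throughout) of 1.90 ± 0.24 (SE, n = 2 and 3, adjusted p = 0.00199, limma). Another Arpp19 probe set read 212 and 224 against 58, 83 and 29 (2.07 ± 0.30, adjusted p = 0.00346, limma), and the third, at 0.29, did not pass. The call for the brighter Arpp19 probe set held in 20 of 21 alternatives.

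Ppp3cb, a catalytic subunit of the calcium-dependent phosphatase calcineurin, differed in the other direction. It read 145 and 89 in the bed nucleus and 297, 264 and 283 in the preoptic area, a difference of -1.31 ± 0.21 (adjusted p = 0.00659, limma). The bed nucleus arrays differed more from each other than the preoptic arrays did, and a further Ppp3cb probe set, at 0.19, did not pass. The list of calcineurin and phosphatase regulators had 17 of 28 measured members higher and 11 lower in the bed nucleus on 1 probe set per gene, the brightest. Arpp19 and Ppp3cb were the members called. On that basis 0.444% of all genes were called, and 48.8% of all genes lay higher in the bed nucleus, with a median difference of -0.005.

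Kinases were called in both directions, and 1 calcium channel subunit was called higher in the bed nucleus. Prkcb, protein kinase C beta, read 836 and 760 against 371, 429 and 285 (1.16 ± 0.21, adjusted p = 0.0155, limma), and its further called probe set was at 1.23. Cacna2d3, an auxiliary subunit of voltage-gated calcium channels, read 117 and 128 against 58, 64 and 54. Its difference was 1.06 ± 0.15 (adjusted p = 0.00346, limma), and each bed nucleus array lay far above each preoptic array. Tesc, an EF-hand calcium-binding protein, was higher in the bed nucleus on both called probe sets (0.91 and 0.93). Camk2g, a subunit of calcium/calmodulin-dependent kinase II, was higher in the preoptic area, with 190 and 151 against 274, 352 and 300 (-0.86 ± 0.16, adjusted p = 0.0231), while a further Camk2g probe set was at -0.17. Over the whole lists, kinases had 19 members higher and 18 lower of 37 measured, with 11 higher and 4 lower at an unadjusted p under 0.05 (limma). The groups did not overlap for 11 higher and 4 lower kinases, against 9.48% and 12.1% of all genes. Calcium, sodium and HCN channels had 14 higher and 8 lower of 22, with 4 higher and 3 lower at an unadjusted p under 0.05. The groups did not overlap for 5 higher and 6 lower of these channels. Their summed intensity was lower in the bed nucleus, at 1580 to 1698 against 1807 to 2499. Potassium channel subunits had 22 higher and 17 lower of 39, and 0 called (limma), with 2 higher and 7 lower at an unadjusted p under 0.05. Of all genes 0.444% were called on 1 probe set per gene, and 10.3% of all probe sets had an unadjusted p under 0.05.

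Transcription factors called higher in the bed nucleus included Erf, Meis2, Mef2c, Mef2a, Foxp1 and Egr1. Meis2, a homeodomain factor of the striatum and amygdala, read 771 and 760 in the bed nucleus and 296, 517 and 183 in the preoptic area (1.33 ± 0.27, adjusted p = 0.0318, limma). Preoptic array 6 held the lowest Meis2 value, and without it the difference was 0.97 with an adjusted p of 0.0581. Mef2c, a MADS-box factor of neuronal differentiation, read 548 and 431 against 165, 251 and 179 (1.32 ± 0.21, adjusted p = 0.00659, limma). A further Mef2c probe set passed at 0.96, and the others, at 0.65, 0.10 and -0.24, did not. Its relative Mef2a was called on 3 probe sets (1.02, 0.92 and 0.91), the brightest of which read 409 and 405 against 190, 236 and 181.

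Foxp1, a forkhead factor of striatal projection neurons, was called on 2 probe sets. The brighter read 3262 and 3422 in the bed nucleus and 1428, 1920 and 1437 in the preoptic area (1.08 ± 0.17, adjusted p = 0.00659, limma), and the further one was at 1.20. Its 5 remaining probe sets lay between -0.09 and 0.82. Erf, an ETS-domain repressor, read 353 and 313 against 156, 170 and 85 (1.34 ± 0.24, adjusted p = 0.0155, limma), with a further Erf probe set at 0.22. Egr1, an immediate early gene that follows neuronal activity, read 193 and 213 against 78, 122 and 87 (1.11 ± 0.18, adjusted p = 0.0073, limma). Of 28 immediate early genes 14 were higher and 14 lower, and Egr1 was the member called.

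Sox11, a factor of immature neurons, was the transcription factor of the fixed lists called in the other direction, with 78 and 72 in the bed nucleus and 126, 154 and 116 in the preoptic area (-0.81 ± 0.16, adjusted p = 0.0318, limma). Of 51 measured forebrain patterning factors, 21 were higher and 30 lower in the bed nucleus, with 3 and 1 called. Lhx2, a LIM homeodomain factor, read 60 and 65 against 38, 49 and 35 and did not pass (0.63 ± 0.16, adjusted p = 0.11). Lhx8, a factor of cholinergic and preoptic neurons, read 13 and 12 against 19, 29 and 20 (-0.83, adjusted p = 0.0986). Zic1, a zinc finger factor of septum and preoptic area, read 168 and 343 against 579, 501 and 497 (-1.13 ± 0.34, adjusted p = 0.18). The groups of these 3 factors did not overlap, but the 2 bed nucleus arrays of Zic1 differed by more than all the preoptic arrays did.

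**Figure D2:**
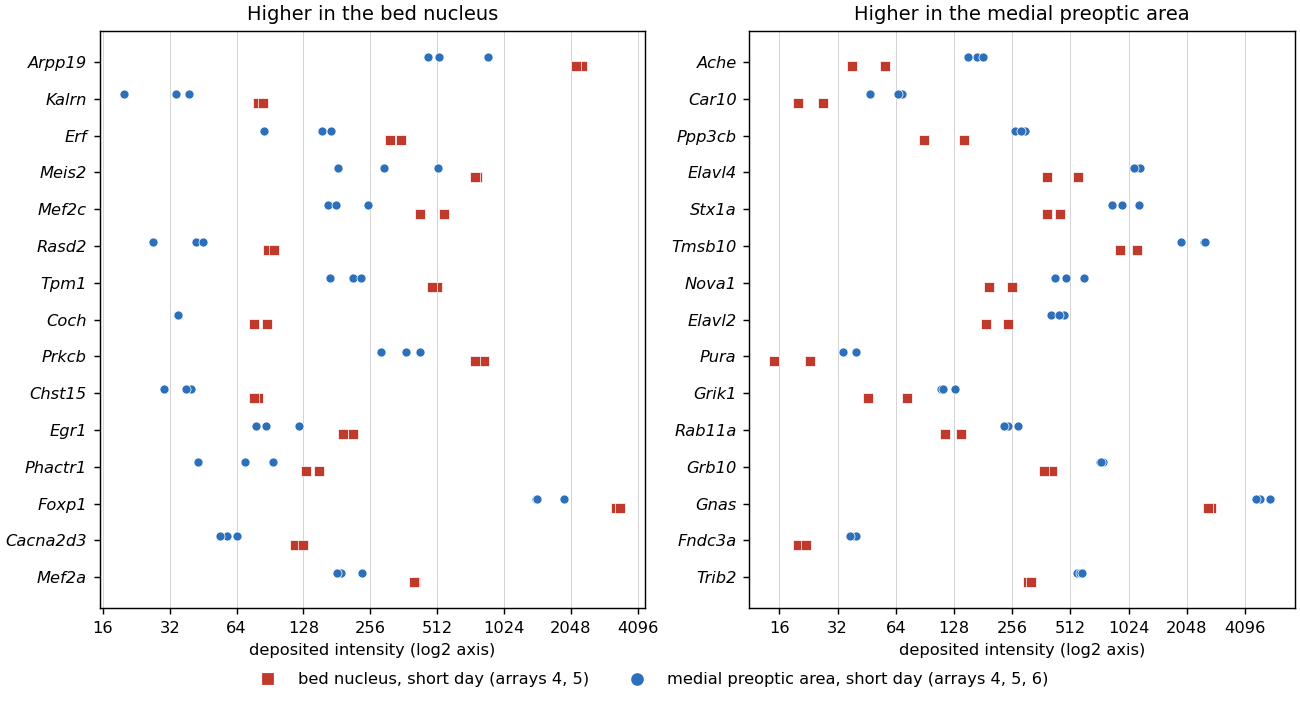
Deposited intensity on each short-day array (horizontal axis, log2 scale) for the 15 called genes with the largest difference in each direction, 1 probe set per gene; red squares are the 2 bed nucleus arrays and blue circles the 3 preoptic arrays. The arrays of the nuclei do not overlap for any of these genes, and preoptic array 6 is the lowest of its group for genes such as Kalrn (20), Erf (85) and Meis2 (183).

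Genes that mark striatal projection neurons lay higher in the bed nucleus as a group. Of 21 measured, 18 were higher and 3 lower, with a median log2 difference of 0.68 and a range from -0.19 to 1.33. The groups did not overlap for 13, all higher in the bed nucleus, where 9.48% of all genes were apart in that direction and 12.1% in the other. Called were Foxp1, Meis2 and Rasd2. Rasd2, a small GTPase enriched in striatum, read 89 and 94 in the bed nucleus and 42, 45 and 27 in the preoptic area (1.30 ± 0.24, adjusted p = 0.0228, limma). A further Rasd2 probe set, at 0.31, did not pass. The summed intensity of the list was 6895 and 6944 on the bed nucleus arrays and 4338, 5295 and 3964 on the preoptic arrays, lowest on preoptic array 6. Foxp1 alone made up a large part of each sum and of the difference between the nuclei. Without that array the median was 0.45, a fall of over 1.5 times. The list holds genes of the bed nucleus itself as well as of the striatum, and in punches a difference in the number of cells of a type and in RNA per cell cannot be told apart.

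Several defining striatal genes did not pass or were dim. Rgs9, a regulator of G-protein signalling, read 86 and 108 against 48, 67 and 32 (1.04, adjusted p = 0.0849), with a further Rgs9 probe set at 0.29. Ppp1r1b, which encodes the dopamine-regulated phosphoprotein DARPP-32, read 26 and 22 against 13, 14 and 16 (0.74, adjusted p = 0.0814). Pde10a, the phosphodiesterase of medium spiny neurons, read 53 and 54 against 28, 31 and 32 (0.82, adjusted p = 0.112). Penk, the enkephalin precursor, read 107 and 110 against 50, 79 and 67 (0.76, adjusted p = 0.129). For these genes the arrays of the nuclei did not overlap on the probe set whose readings are given. Drd2, a dopamine receptor of the indirect striatal pathway, read 15 and 13 against 14, 12 and 14, below the array median throughout, with a difference of 0.07. The dopamine receptor Drd1 and the adenosine receptor Adora2a were not analysed here.

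**Figure D3:**
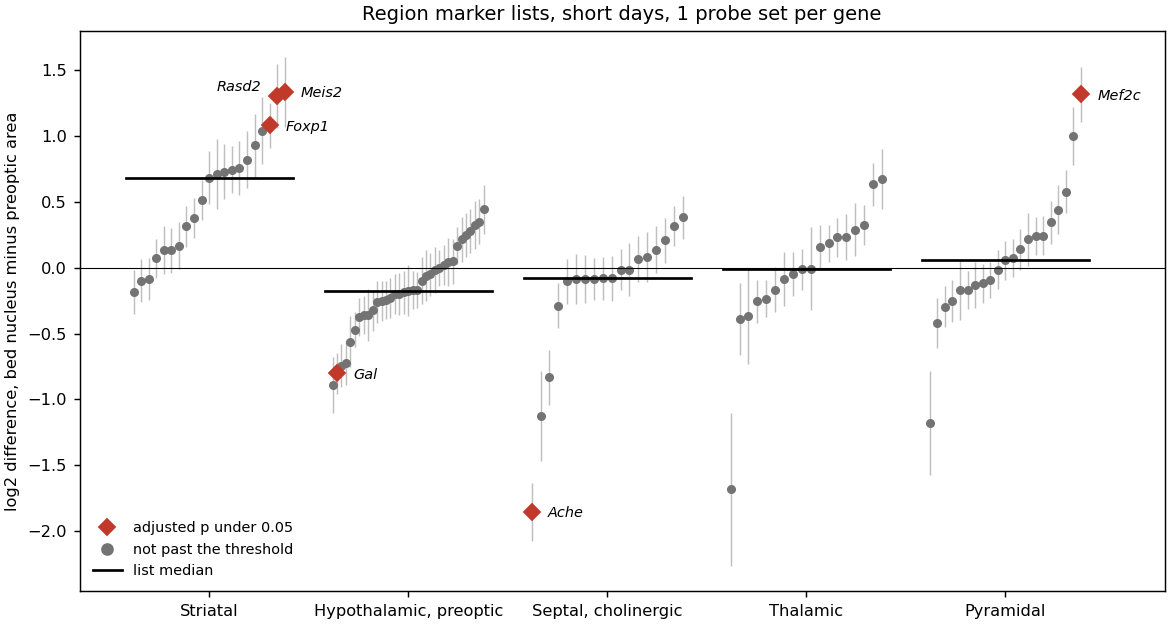
Log2 difference, bed nucleus minus medial preoptic area (vertical axis, bars are the SE of the fit), for each measured member of 5 region marker lists (horizontal axis, members sorted by value); red diamonds passed an adjusted p of 0.05 and black lines are list medians. The striatal median lies at 0.68 and the hypothalamic and preoptic median at -0.18, and 6 members across these lists passed.

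Genes of dendritic spines and actin were called in the bed nucleus direction, and the measures of their whole list were mixed. Kalrn, a guanine exchange factor that shapes spines, read 80 and 84 in the bed nucleus and 34, 39 and 20 in the preoptic area (1.46 ± 0.23, adjusted p = 0.00659, limma), with further Kalrn probe sets at -0.02 and 0.12. Tpm1, an actin-binding tropomyosin, read 510 and 484 against 215, 233 and 169 (1.29 ± 0.21, adjusted p = 0.0073, limma), with further Tpm1 probe sets at 0.09 and 0.29. The list had 18 members higher and 22 lower of 40, with 7 higher and 3 lower at an unadjusted p under 0.05 (limma). Its median of -0.015 changed sign in 6 of 22 alternatives. Its mean log2 was 6.663 and 6.638 on the bed nucleus arrays and 6.535, 6.573 and 6.505 on the preoptic arrays. Phactr1, a regulator of actin and protein phosphatase 1, read 131 and 151 against 70, 93 and 43 (1.10, adjusted p = 0.0318). Matrix and receptor genes higher in the bed nucleus were Coch, the secreted protein cochlin, with 88 and 77 against 35 on each preoptic array (1.23), and Chst15, a sulfotransferase of chondroitin sulfate, with 80 and 77 against 40, 38 and 30 (1.14). A further Chst15 probe set lay in the other direction, at -0.18, and did not pass. Vldlr, a receptor of reelin, was at 0.81, and its further probe sets lay between -0.20 and 0.16.

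The other genes called higher in the bed nucleus were smaller in difference. Sgk1, a kinase induced by glucocorticoids, read 1064 and 1131 against 600, 774 and 451 (0.89 ± 0.18, adjusted p = 0.0318, limma). Of 23 stress and glucocorticoid-responsive genes 14 were higher and 9 lower, with a median of 0.035, and Sgk1 was the member called. Of all genes 48.8% were higher. The groups did not overlap for 3 higher and 4 lower members of the list, against 9.48% and 12.1% of all genes. Klhl2, an actin-binding adaptor of a ubiquitin ligase, was at 0.86, Pmepa1, an inhibitor of TGF-beta signalling, at 0.81, Usp2, a ubiquitin protease, at 0.79, and Ccnl1, a cyclin of splicing, at 0.70. Fem1a, a ubiquitin ligase adaptor, read 16 and 21 against 11, 10 and 11 (0.78), and Gsta3, a glutathione transferase, read 26 and 26 against 16 on each preoptic array (0.70). Both are near the array median, where 1 intensity unit is a large step. Igha, the constant region of immunoglobulin A, read 700 and 516 against 294, 281 and 361 (0.95 ± 0.18, adjusted p = 0.0196, limma). Further Igha probe sets, at 0.21 and 0.05, did not pass. Nor did those of Pmepa1 (0.26 and 0.27), Usp2 (0.69), Fem1a (0.22) and Gsta3 (0.12).

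In the other direction the largest called difference was that of Ache, acetylcholinesterase, the enzyme that breaks down acetylcholine. It read 56 and 38 in the bed nucleus and 169, 181 and 152 in the preoptic area. The preoptic arrays lay close together, and Ache was 3.62-fold higher there (-1.86 ± 0.22, adjusted p = 0.000949, limma). The call held in 20 of 21 alternatives, with adjusted p of 0.00262 and 0.0478 without bed nucleus array 4 and 5. The list of septal and basal forebrain cholinergic genes had 6 members higher and 12 lower of 18, and Ache was the member called. Its median of -0.08 was near that of all genes.

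Few genes of transmitter signalling passed the test. Grik1, a kainate-type glutamate receptor subunit, was called, with 46 and 73 in the bed nucleus and 110, 129 and 112 in the preoptic area (-1.01 ± 0.17, adjusted p = 0.0122, limma). Without bed nucleus array 4 Grik1 was at -0.68 (adjusted p = 0.196, limma) and without array 5 at -1.34. Of 28 glutamate receptor and transporter genes 16 were higher and 12 lower in the bed nucleus. The groups did not overlap for 10 higher and 4 lower members, against 9.48% and 12.1% of all genes, and 6 and 3 had an unadjusted p under 0.05, though Grik1 was the member called. Slc17a6, the vesicular glutamate transporter of hypothalamus and thalamus, read 29 and 18 against 88, 67 and 67. Its groups were well apart, but the spread estimated for it was wide and it did not pass (-1.68 ± 0.58, adjusted p = 0.268). A further Slc17a6 probe set was at -0.18 (adjusted p = 0.858, limma). Gad1 and Gad2, the enzymes that make GABA, were at 0.00 each (Gad1 on the brighter of its 2 probe sets), with 95% intervals from -0.31 to 0.32 and from -0.32 to 0.33. Slc32a1, the vesicular GABA transporter, read 528 and 539 against 721, 920 and 681 (-0.52, adjusted p = 0.171), with a further Slc32a1 probe set at -0.06. GABA genes were 8 higher and 7 lower, and monoamine genes 14 higher and 11 lower, with 0 called in either list (limma). At an unadjusted p under 0.05 there were 1 higher and 3 lower GABA genes and 2 higher and 1 lower monoamine genes.

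Of 29 measured genes for RNA-binding proteins of neurons, 3 were called higher in the preoptic area on at least 1 probe set, against 0.524% of all genes in either direction. On the brightest probe set per gene 2 were called, against 0.444% of all genes. None was called higher in the bed nucleus, where limma gave Rbfox1 the largest difference. Nova1, a splicing regulator, read 254 and 195 in the bed nucleus and 605, 428 and 485 in the preoptic area (-1.17 ± 0.17, adjusted p = 0.00346, limma), and its further called probe set was at -0.97. Elavl4, a Hu protein that stabilises neuronal transcripts, read 561 and 390 against 1152, 1176 and 1091 (-1.28 ± 0.25, adjusted p = 0.0283, limma). Its further probe sets, at -1.09 and -1.29, missed the threshold with adjusted p of 0.0505 and 0.0519. Elavl2, a related Hu protein, read 243 and 187 against 477, 405 and 447 (-1.05, adjusted p = 0.0389), with 4 further probe sets between -1.02 and -0.27. The other members did not pass. Elavl3 was at 0.02, and Rbfox1, a splicing factor, at 0.88 (adjusted p = 0.0643). On the brightest probe set per gene, 11 members were higher and 18 lower in the bed nucleus.

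Synaptic and axonal genes lay mostly higher in the preoptic area. Stx1a, the syntaxin of the transmitter release machinery, read 451 and 387 in the bed nucleus and 842, 1167 and 945 in the preoptic area (-1.22 ± 0.24, adjusted p = 0.0318, limma). The other Stx1a probe set was at -0.07, and the called one has one of the suffixes that Affymetrix gives to probe sets able to detect more than 1 transcript, as 9 of the 80 do. Dnm1, the dynamin of synaptic vesicle recycling, was called at -0.72, and a further Dnm1 probe set, at -0.59, did not pass. Gap43, a growth cone protein, read 797 and 860 against 1497, 1376 and 1154 (-0.69 ± 0.15, adjusted p = 0.044, limma). Synaptic vesicle and SNARE genes had 14 members higher and 26 lower in the bed nucleus of 40, and Snap25, the partner of Stx1a, was at 0.10.

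Among axon, cytoskeleton and cell adhesion genes, 40 of 50 were lower in the bed nucleus and 10 higher, with a median of -0.22. For 25 of the 50 the groups did not overlap and the bed nucleus was lower, as it was for 12.1% of all genes, though Gap43 was the member called. General neuronal genes had 15 of 21 lower, 11 of them with groups apart, a median of -0.28, and Elavl4 and Gap43 called. Their summed intensity was 7082 and 6656 on the bed nucleus arrays and 9041, 8932 and 8489 on the preoptic arrays. Subunits of the mitochondrial respiratory chain had 52 of 70 lower and 24 apart in that direction, with a median of -0.21 and 0 called (limma), and at an unadjusted p under 0.05 there were 2 higher and 16 lower. Cytosolic ribosomal proteins had 25 of 43 lower, with a median of -0.04 that was -0.14 without preoptic array 6, -0.08 without bed nucleus array 4 and 0.01 without array 5. The medians of the axonal, neuronal and mitochondrial lists stayed below 0 in each of 22 alternatives.

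Imprinted genes, several of which are strongly expressed in the hypothalamus, were called on 2 of 28, against 0.444% of all genes on 1 probe set per gene. Gnas, which encodes the stimulatory G-protein alpha subunit, read 2749 and 2637 in the bed nucleus and 4896, 5514 and 4656 in the preoptic area (-0.90 ± 0.17, adjusted p = 0.0245, limma). Its 3 further probe sets lay between -0.15 and 0.16. Grb10, an adaptor that dampens insulin and growth factor signalling, read 412 and 376 against 756, 731 and 736. The preoptic arrays of Grb10 lay close together (-0.91 ± 0.13, adjusted p = 0.00346, limma), with further Grb10 probe sets at -0.09 and 0.24. Ndn, the growth suppressor necdin, read 1695 and 2127 against 2764, 3230 and 3604 (-0.74, adjusted p = 0.0519). Nnat, neuronatin, read 264 and 234 against 427, 430 and 377 (-0.72, adjusted p = 0.0658). Neither passed. The Ndn readings come from the brightest of its 8 probe sets. The further Ndn probe sets had smaller differences, between -0.60 and -0.15 (adjusted p from 0.118 to 0.813, limma). The list had 11 members higher and 17 lower, with a median of -0.06, which was -0.09 without bed nucleus array 4 and -0.03 without array 5.

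Of 35 measured hypothalamic and preoptic genes, 25 lay lower in the bed nucleus and 10 higher, with a median of -0.18. The groups did not overlap for 11 lower members and 2 higher ones, against 12.1% and 9.48% of all genes. Gal, the neuropeptide galanin, which marks preoptic neurons of parental behaviour and sleep, was the member called, with 54 and 80 in the bed nucleus and 112, 110 and 122 in the preoptic area (-0.80 ± 0.15, adjusted p = 0.0272, limma). Bed nucleus array 4 held the lower Gal value, and without it the difference was -0.52 (adjusted p = 0.278). The summed intensity of the list was 2880 and 3291 in the bed nucleus and 4224, 4738 and 5108 in the preoptic area, of which Ndn alone makes up most on each array. Nkx2-1, a defining homeodomain factor of the ventral forebrain and hypothalamus, read 66 and 64 against 70, 81 and 69 (-0.17). The list's median was -0.11 without preoptic array 6 and -0.12 without bed nucleus array 4, smaller by over 1.5 times in each case.

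Other neuropeptides did not pass. Of 34 measured precursors, 10 were higher and 24 lower in the bed nucleus. Npy, neuropeptide Y, read 228 and 310 in the bed nucleus and 82, 198 and 65 in the preoptic area (1.38 ± 0.38, adjusted p = 0.131), apart but widely spread. Sst, somatostatin, read 700 and 397 against 261, 520 and 278 (0.65), and its groups overlapped. Oxt, oxytocin, read 76 and 53 against 78, 78 and 82 (-0.32, adjusted p = 0.473), and Avp, vasopressin, read 38 and 45 against 47, 48 and 49 (-0.21). Trh, thyrotropin-releasing hormone, and Tac1, the substance P precursor, were near or below the array median of 19 on all 5 arrays. Neuropeptide receptors had 19 higher and 20 lower members of 39 and 0 called (limma), with 0 higher and 2 lower at an unadjusted p under 0.05.

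Steroid receptors and enzymes, for which both nuclei are known, had 11 members higher and 7 lower of 18, and 0 called (limma), with 1 higher and 0 lower at an unadjusted p under 0.05. Esr1, oestrogen receptor alpha, read 14 and 14 in the bed nucleus and 11, 14 and 10 in the preoptic area, below the array median, so its level in this tissue was not resolved (0.28, adjusted p = 0.607). Esr2, oestrogen receptor beta, read 28 and 33 against 29, 37 and 33 (-0.11), and Pgr, the progesterone receptor, 17 and 16 against 16, 15 and 18 (0.02). The Pgr readings also lay below the array median, so its level was not resolved either. The 95% interval of the difference was -0.06 to 0.62 for Esr1, -0.43 to 0.21 for Esr2 and -0.30 to 0.34 for Pgr. The androgen receptor and aromatase were not analysed here. Clock genes (13 higher, 8 lower) and thyroid hormone, melatonin and other photoperiod genes (11 higher, 10 lower) held 0 called members (limma), and 3 and 1 at an unadjusted p under 0.05.

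The remaining genes called higher in the preoptic area were of mixed function. Car10, a carbonic anhydrase-related protein of synapses, read 20 and 27 in the bed nucleus and 69, 66 and 47 in the preoptic area (-1.36 ± 0.23, adjusted p = 0.00864, limma). Tmsb10, an actin-sequestering thymosin, was at -1.17, with further probe sets from -0.78 to 0.31. Pura, a nucleic acid-binding protein, was at -1.03, Rab11a, a GTPase of recycling endosomes, at -0.99, Fndc3a at -0.88, and Trib2, a pseudokinase, at -0.87. Further probe sets that were not called lay between -0.68 and -0.01 for Pura, at -0.34 for Rab11a and at -0.12 for Trib2. Ptpru, a receptor tyrosine phosphatase, was at -0.83, and Slc7a3, a carrier of cationic amino acids, read 40 and 63 against 83, 92 and 84 (-0.78). Further calls between -0.68 and -0.81 were genes of membrane traffic (Ap2m1, Sec16a, Stard3nl), of RNA handling (Pcbp1, Prpf19, Lsm12, Tnrc6a), of metabolism and transport (Mdh1, Cds2, Slc39a6), and Flii, Fibp, Lrrc49, Ier3ip1, Tm2d1, Chid1, Kctd9 and 2310061I04Rik. Several of these genes have further probe sets that were not called. Those of Cds2, Flii, Fibp, Tnrc6a, Ier3ip1 and Chid1 reached values above 0. Those of Mdh1, Prpf19, Sec16a, Slc39a6 and 2310061I04Rik all lay below 0. Lrrc49 read 11 and 13 against 18, 23 and 22. A further 6 called probe sets carry no gene symbol.

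Markers of other regions and cell types were measured beside these genes, and their part in the results was not tested. Thalamic genes had 8 of 18 higher and 10 lower in the bed nucleus and 0 called, with summed intensities of 4153 to 4488 against 3430 to 4111. Cortical and hippocampal pyramidal genes had 11 of 21 higher, Mef2c called, and sums of 1332 to 1358 against 982 to 1062. Oligodendrocyte genes were higher in 18 of 24 with a median of 0.18 and 0 called, with sums of 2564 to 3475 against 2201 to 2761, and the median was 0.05 without bed nucleus array 4 and 0.07 without preoptic array 6. Astrocyte genes had 10 of 24 higher, with sums of 8717 to 9886 against 8890 to 10122. Microglial genes had 10 of 23 higher and vascular genes 15 of 28. Limma called 0 members of the thalamic and of these glial and vascular lists. At an unadjusted limma p under 0.05 there were 3 higher and 1 lower thalamic genes, and 4 and 1 oligodendrocyte genes. Likewise there were 0 and 4 astrocyte, 1 and 0 microglial, and 1 and 1 vascular genes. Of all probe sets 10.3% had such a p in either direction. Meningeal genes had 12 of 19 higher, with sums of 642 to 878 against 793 to 1338, the highest on preoptic array 6. Ependymal genes had 11 of 19 higher, with sums of 719 to 757 against 632 to 740. Progenitor genes had 11 of 20 higher, with Sox11 called, but sums of 3590 to 3833 against 4227 to 4874. The groups did not overlap for 3 higher and 5 lower progenitor genes, against 9.48% and 12.1% of all genes. Red cell transcripts had 4 of 5 higher, with sums of 347 to 391 against 283 to 380.

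The long-day arrays are other samples and were set beside the short-day ones. On them 29 probe sets were called (0.128%), 7 of which were among the 80. Of the 80, 74 had the same direction in long days, where 52.9% of all probe sets had the same direction in both. In long days 79 of the 80 were smaller, with a median size of 0.465. The 80 were chosen by their short-day size, so a smaller value on other arrays is no test. Called in both day lengths with a name were Tpm1 (1.29 in short and 1.18 in long days), Mef2a (0.91 and 0.84), Ppp3cb (-1.31 and -1.03) and Slc7a3 (-0.78 and -0.78). Ache was at -0.92 in long days (adjusted p = 0.072) and the brighter Arpp19 probe set at 0.88 (adjusted p = 0.128). The striatal list had a median of 0.32 in long days and the hypothalamic list -0.13.

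The test of whether the difference between the nuclei itself differed between short and long days called 0 probe sets (limma). Its smallest adjusted p was 0.238, and 1888 unadjusted p-values lay under 0.05. Without long-day bed nucleus array 1 it called 5. Of the 80 short-day calls 42 had an unadjusted p under 0.05 in this test, which is not independent of how they were chosen. The 6 that did not keep their direction were Igha (0.95 in short and -0.25 in long days), Sox11 (-0.81 and 0.04), Gsta3 (0.70 and -0.16), Fem1a (0.78 and -0.04), Lsm12 (-0.70 and 0.01) and Lrrc49 (-0.80 and 0.00). Genes called in long days but not in short days included Lhx2, at 1.81 in long and 0.63 in short days, and Prkcd, protein kinase C delta, at 1.36 and 0.68. They also included 3 probe sets of Vim, vimentin, which gave 1.55, 1.51 and 1.43 on the long-day arrays against 0.37, 1.21 and 0.67. Nptx2, a synaptic pentraxin, was at 0.87 in long and -0.42 in short days, and Ropn1l, a ciliary protein, at 0.92 and -0.20. None of these passed the test of the difference.

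**Figure D4:**
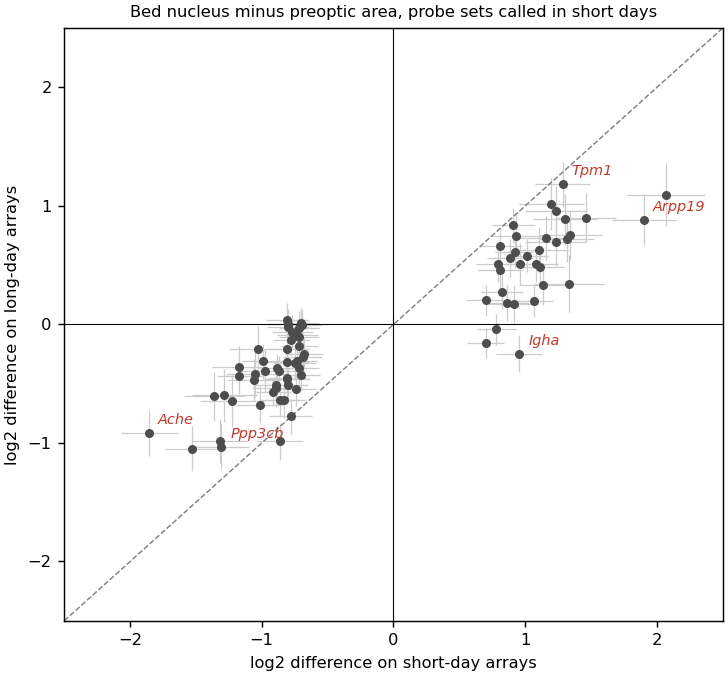
Log2 difference, bed nucleus minus medial preoptic area, on the short-day arrays (horizontal axis) and on the long-day arrays (vertical axis) for the 80 probe sets called in short days; bars are the SE of the fit and the dashed line marks equality. 74 of the 80 have the same direction on both axes and 79 are smaller in long days, with Tpm1 near the line and Igha on the other side of 0.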

How the data were processed

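The authors deposited 1 linear intensity per probe set and array, made with RMA 3.4 per the submitters' processing notes. What else was done is not given in the sources used here. They are whole numbers with the same median on every array, so they were normalized between arrays and rounded. Sequence differences from the house mouse lower some probe sets by an unknown amount, so levels of different probe sets were not compared with each other. Of 22690 probe sets, 64 control probe sets were set aside. Of the 22626 tested, 20380 carry 1 symbol in the platform annotation (12393 genes), 691 carry several and 1555 none; only the first were named. Some symbols can be old. No detection call was used, and 51.1% of short-day values were 19 or less, where 1 unit is 0.074 or more on the log2 scale. Precision is limited by the number of arrays.

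The log2 of the deposited values was fitted with 4 group means over the 11 arrays (limma 3.58.1, functions lmFit and eBayes, R 4.3.3). There were 7 residual and 12.9 prior degrees of freedom. Tests were two-sided, with Benjamini-Hochberg adjustment over all probe sets and a threshold of 0.05. The procedure was tested on simulated data. The contrast was short-day bed nucleus minus short-day preoptic area, and its difference from the long-day contrast was tested once. The 36 gene lists (902 of 1124 genes measured) were described by counts and medians on the probe set of each gene with the highest mean over the 5 arrays, with no set test. The comparison, the lists and the genes were chosen with earlier results of these data known. Named were the 15 called genes with the largest difference in each direction, called list members, the 4 members of each list with the smallest p, the 10 genes with the smallest p for the short-minus-long difference, and fixed genes of region, peptide and steroid biology. Other genes, among them further called genes and those called in long days, were named after their values were seen. Alternatives changed the normalization, the rounding, the pseudocount, the filter on dim probe sets, the prior, the array weights, the probe set per gene, the threshold, the block and the arrays.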

Additional observations from a re-analysis of the deposited data

How the results depend on the processing

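The 80 calls (33 higher in the bed nucleus, 47 higher in the preoptic area) depended on the spread and on single arrays. With the 5 short-day arrays alone 0, 0 and 0 passed. Leaving out each array in turn gave 6 to 106 calls, 1 to 41 higher in the bed nucleus and 5 to 65 higher in the preoptic area, and 0 to 5 calls for the difference between day lengths. Centring on the upper quartile gave 72 higher in the preoptic area, the trended and robust prior 78 and array weights 83. A pseudocount of 16 gave 140 calls, 103 of them higher in the preoptic area, and leaving out dim probe sets gave 132 and 90. At a threshold of 0.1 there were 177 (60 and 117). Deviations of same-numbered samples correlated at -0.028 to 0.073. These values rest on few arrays per group and cannot show whether same-numbered samples came from the same animal. With the sample number as a replicate block the count was 80, of which 51 were among the 80 of the unblocked fit. Of the 80, 0 changed direction in any alternative run. Quantile normalization, undoing the rounding with noise, and 1 probe set per gene gave 73, 75 and 77 calls. Many values (51.1%) lie at or below the array median, where rounding limits what can be resolved.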
